A study of Homo sapiens with 6 samples.

Results

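SRSF11 and 7 genes whose products act beside it were followed in LoVo cells with and without SRSF11 siRNA. The group holds SRSF11 itself, its SR-related relatives SREK1 and SRSF12, the SREK1 partner SREK1IP1, the neural microexon activators SRRM3 and SRRM4, and the speckle proteins RNPS1 and PNN. They were picked by gene name for these roles and are 8 of the 58735 genes of the count table. LoVo is an established line from a human colorectal adenocarcinoma. Of the 6 samples, 3 received a negative control siRNA (si-NC) and 3 an siRNA that targets SRSF11 (si-SRSF11). Poly-A selected RNA gave paired reads of 150 bp. All 6 samples carried an siRNA, and which of the study's SRSF11 siRNAs went into the sequenced cells is not given in the sources used here. Only 1 cell line was used, and the study speaks of pairs of independent RNA samples without saying what paired them or whether they came from separate cultures, so the p-values measure the spread between these samples.

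SR and SR-related proteins carry stretches rich in serine and arginine, bind pre-mRNA and one another in nuclear speckles, and help the spliceosome to recognise exons. Microexons, exons so short that they are skipped by default, depend on such help. In neurons SRRM4 and its paralogue SRRM3 switch them on from an enhancer in the intron upstream, and SRSF11 and RNPS1 have been found to act there with SRRM4. RNPS1 also forms a complex with SAP18 and either PNN (PSAP) or ACIN1 (ASAP), which sits on spliced mRNA with the exon junction complex.

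The libraries held between 14369525 and 15514404 counts in si-NC and between 15688702 and 16685719 in si-SRSF11. Of the 58735 genes, 15801 had at least 10 counts in at least 3 libraries and were tested. Mitochondrial genes took at most 7.25% of the counts in the si-NC libraries and at least 8.29% in the si-SRSF11 libraries, and the part of this shift in the values below was not tested. All 12 markers of colorectal epithelium passed the filter, with a summed level, in counts scaled to a library of 1000000 (CPM), of 6043 to 6416 in si-NC and 6116 to 6552 in si-SRSF11, about as much of it from KRT8 as from the others together. Of them CDX1 (log2 fold change 0.31, adjusted p 0.0012), CDX2 (0.40, adjusted p 0.00038) and CEACAM6 (0.73, adjusted p 0.012, and 0.061 without si-NC replicate 1) rose, by edgeR's quasi-likelihood test. KRT20, with 6 to 20 counts per library, and CEACAM5, with 10 to 20, were close to the filter. Of 12 markers of fibroblast, endothelium and leukocyte, 5 passed it. The sum over the 12 was 24.3 to 27.9 CPM in si-NC and 29.9 to 34.7 in si-SRSF11, and DCN and PTPRC were among those at 0 in every library. PDGFRB rose from 8.89 ± 1.46 to 14.5 ± 1.12 CPM (SD, n = 3, log2 fold change 0.70, adjusted p 0.00023 by edgeR). The other 4 tested markers, COL1A1 (-0.12), VWF (-0.83), PECAM1 (0.44) and CD14 (0.35), did not pass. The part of these marker differences in the results was not tested.

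Of the 8 genes, 6 had enough reads for a test. SRSF11 fell, SREK1, RNPS1 and PNN rose, and SREK1IP1 and SRRM3 did not pass the threshold. SRSF12 and SRRM4 had too few reads. A gene was called at an adjusted p under 0.05 in edgeR's quasi-likelihood test with Benjamini-Hochberg adjustment over the 15801 genes, a test that called 24.6% of them, 13.2% as higher and 11.4% as lower in si-SRSF11. The levels of 5 of the 6 tested genes did not overlap between the groups, as was so for 38.8% of all tested genes. None of the 6 tested members passed the study's further limit of an absolute log2 fold change over 1, which 1.09% of all tested genes did. Levels below are in CPM scaled by the trimmed mean of M-values (TMM), and log2 fold changes are si-SRSF11 against si-NC.

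**Figure D1:**
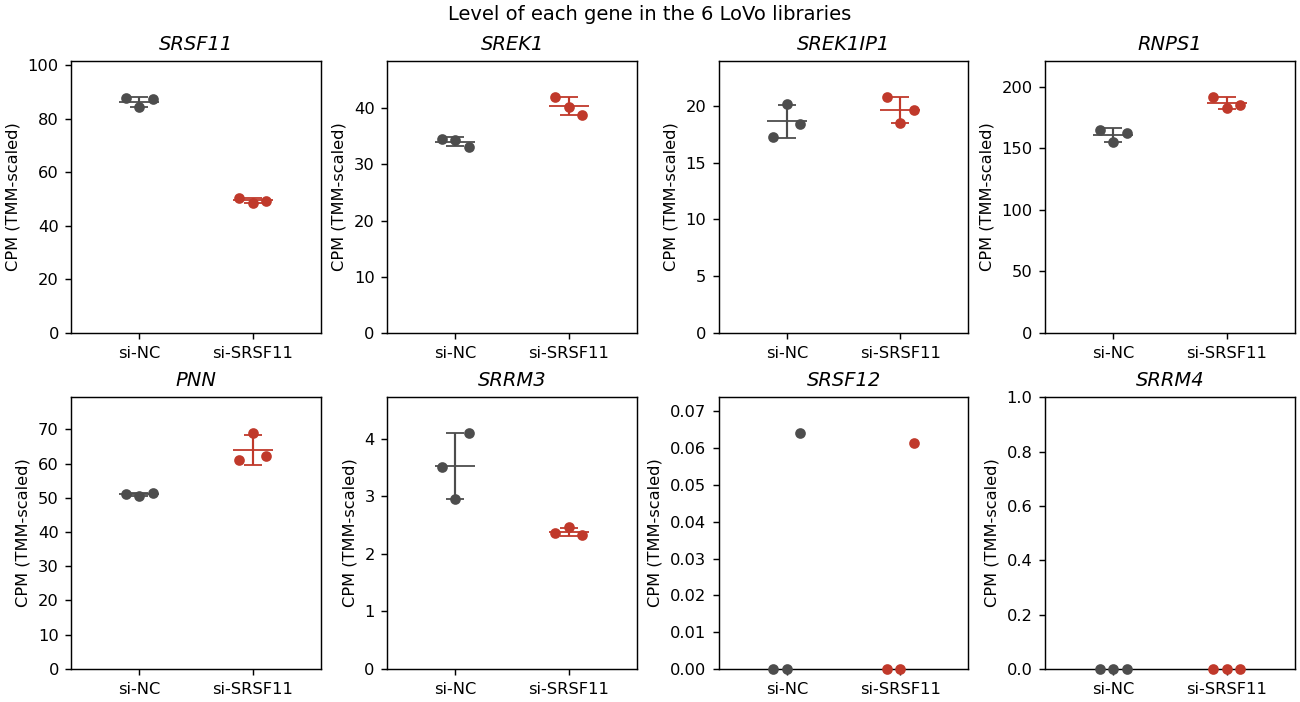
The level of each of the 8 genes in CPM is plotted for the 3 si-NC and the 3 si-SRSF11 libraries, with 1 point per library and, for the 6 tested genes, the mean (long bar) and SD (whiskers). Each panel has its own scale from 0. SRSF11 lies near 86.5 CPM in si-NC and near 49.5 in si-SRSF11, and SRRM4 has no reads.

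SRSF11, which binds the splicing factor U2AF2 and is the target of the siRNA, was read before the others as a check of the labels. SRSF11 (ENSG00000116754, chr1:70205682-70253052 of GRCh38, plus strand) was at 87.6, 84.3 and 87.5 CPM in si-NC and at 50.5, 48.5 and 49.5 CPM in si-SRSF11. All si-SRSF11 libraries were lower than all si-NC libraries. The mean went from 86.5 ± 1.90 to 49.5 ± 0.952 CPM (SD, n = 3), so that 57.2% of the SRSF11 reads of the control remained. The log2 fold change was -0.81 (SE 0.0541, 95% interval -0.92 to -0.69), with an adjusted p of 6.1e-10 by edgeR's quasi-likelihood test. Ranked by p, SRSF11 stood at place 14 among the tested genes. In bulk RNA, a drop in every cell and a larger drop in the share of cells that took up the siRNA cannot be told apart. The annotation lists 16 transcripts of SRSF11, of which 4 are coding and 2 are marked for nonsense-mediated decay, and 43.6% of its exon bases lie outside the coding transcripts. The gene count adds all of them up, so it does not tell which transcript fell.

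The promoters of the 3 genes that rose are shown because these genes moved in the same direction while SRSF11 fell. Each is the RefSeq window (GRCh38.p14) of 250 bases before to 50 bases after a transcription start, 5′ to 3′ on the strand of the gene, with matches to the searched motifs in capitals. The PNN window lies at chr14:39175004-39175303 (plus strand), the RNPS1 window at chr16:2268077-2268376 (minus strand) and the SREK1 window at chr5:66144050-66144349 (plus strand). RNPS1 has 3 such windows and SREK1 has 2, and the window nearest to the start in the count table was taken, which for SREK1 lies 4329 bases from it.
PNN: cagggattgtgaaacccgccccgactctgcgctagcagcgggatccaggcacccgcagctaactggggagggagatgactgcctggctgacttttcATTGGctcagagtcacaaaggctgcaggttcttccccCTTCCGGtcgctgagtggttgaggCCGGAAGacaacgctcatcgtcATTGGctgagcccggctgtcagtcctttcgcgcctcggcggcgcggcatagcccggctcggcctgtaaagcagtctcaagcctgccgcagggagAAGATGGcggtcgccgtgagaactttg
RNPS1: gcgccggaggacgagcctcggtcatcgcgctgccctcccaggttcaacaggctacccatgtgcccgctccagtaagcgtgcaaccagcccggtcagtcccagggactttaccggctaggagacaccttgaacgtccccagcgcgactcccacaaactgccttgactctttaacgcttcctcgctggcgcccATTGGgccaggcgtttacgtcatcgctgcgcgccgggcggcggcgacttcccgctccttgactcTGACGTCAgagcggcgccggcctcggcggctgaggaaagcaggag
SREK1: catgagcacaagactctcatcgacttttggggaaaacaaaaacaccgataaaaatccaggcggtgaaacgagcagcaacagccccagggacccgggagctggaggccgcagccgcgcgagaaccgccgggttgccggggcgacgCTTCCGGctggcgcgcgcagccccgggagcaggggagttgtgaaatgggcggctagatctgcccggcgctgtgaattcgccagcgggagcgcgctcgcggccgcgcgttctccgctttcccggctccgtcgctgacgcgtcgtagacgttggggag

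Both strands were searched for CCAAT, TGACGTCA (the cyclic AMP response element), CCGGAAG (a core bound by ETS factors), AAGATGG (resembling a YY1 site) and TATAAA, and none of the matches in these windows overlap. CCAAT occurred 2 times in the PNN window and 1 time in that of RNPS1, and 34.6% of 35116 RefSeq promoter windows hold it. CCGGAAG occurred 2 times in PNN and 1 time in SREK1, against 10.3% of all windows. TGACGTCA was found in RNPS1, against 1.85% of all windows, and AAGATGG in PNN, against 5.84%. TATAAA, which 11.5% of all windows hold, was in none of the 3. No motif of this set was found in all 3 windows, and the SRSF11 window (chr1:70205446-70205745) held none of them. Of the other members, SREK1IP1, which was not called, held CCAAT 1 time in its window. The windows of SRRM3, SRSF12 and SRRM4 held no motif of the set. The GC content was 62.3% for PNN, 66.0% for RNPS1, 66.3% for SREK1 and 64.7% for SRSF11, where the median of all windows was 58.7%. A match describes the letters of a window and not a bound site.

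Among the relatives of SRSF11, SREK1, an SR-related protein that modulates other SR proteins, rose. SREK1 (ENSG00000153914, chr5:66139971-66183615, plus strand) was at 34.6, 34.4 and 33.1 CPM in si-NC and at 42.1, 40.2 and 38.8 CPM in si-SRSF11. The groups did not overlap. The mean rose from 34.0 ± 0.770 to 40.4 ± 1.63 CPM (SD, n = 3), a 1.19-fold change with a log2 fold change of 0.25 (SE 0.0665, 95% interval 0.11 to 0.39) and an adjusted p of 0.0085 by edgeR's quasi-likelihood test. Of the 16 annotated SREK1 transcripts, 4 are coding, 3 are marked for nonsense-mediated decay and 7 retain an intron, and 50.8% of the exon bases lie outside the coding ones.

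SREK1IP1, a small zinc-knuckle protein that binds SREK1, did not pass the threshold. SREK1IP1 (ENSG00000153006, chr5:64718144-64768685, minus strand) was at 17.3, 20.2 and 18.4 CPM in si-NC and at 20.8, 18.5 and 19.7 CPM in si-SRSF11, and the groups overlapped. The log2 fold change of 0.08 had a 95% interval of -0.12 to 0.27 and an adjusted p of 0.59 by edgeR's quasi-likelihood test, so neither a small rise nor a small fall could be told from none. SREK1 and SREK1IP1 lie on the same chromosome on opposite strands and were counted on separate exons.

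SRSF12, which counteracts other SR proteins in splice site choice, had almost no reads. SRSF12 (ENSG00000154548, chr6:89095959-89118081, minus strand) had 0, 0 and 1 counts in si-NC and 0, 0 and 1 counts in si-SRSF11. Both groups lie under the limit of 3 counts that a count of 0 allows, so no fold change is given.

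The microexon activators were low or without reads. SRRM4 (ENSG00000139767, chr12:118981495-119163051, plus strand) had 0 counts in each of the 6 libraries. A count of 0 allows up to 3 counts, equal to 0.184 to 0.207 CPM in a single library, and to 0.0663 CPM over the si-NC libraries and 0.0622 CPM over the si-SRSF11 libraries. These limits cover counting error only, and a lower level was not detectable at this depth.

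SRRM3 (ENSG00000177679, chr7:76201900-76287288, plus strand) was the activator with reads, 45 to 64 counts per library in si-NC and 37 to 40 in si-SRSF11. Its levels were 3.52, 2.96 and 4.11 CPM in si-NC and 2.37, 2.46 and 2.33 CPM in si-SRSF11. All si-SRSF11 libraries were lower than all si-NC libraries, and the si-NC libraries were the more spread, with 3.53 ± 0.574 CPM against 2.39 ± 0.0676 CPM (SD, n = 3). The log2 fold change was -0.56 (SE 0.215, 95% interval -1.01 to -0.12), and at an adjusted p of 0.060 by edgeR's quasi-likelihood test it did not pass. It passed, at an adjusted p of 0.046, without si-NC replicate 2 (log2 fold change -0.68) and when scaled by library size alone (-0.60), and at 0.049 among protein-coding genes alone (-0.58). Without si-NC replicate 3, the highest library, it was -0.44 with an adjusted p of 0.24.

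Neuron and neuroendocrine markers were read beside these, since SRRM3 and SRRM4 belong to such cells. Of the 12 markers, 10 did not reach the filter, and SYT1, SNAP25, STMN2, DCX, NEUROD1 and NEFL were at 0 in every library. Their summed level was 5.14 to 7.38 CPM in si-NC and 3.37 to 6.21 CPM in si-SRSF11, with overlap. Both tested markers had lower means in si-SRSF11, as SRRM3 did. Under the filter, MAP2, with 1 to 10 counts, had the higher mean in si-SRSF11 (0.351 against 0.240 CPM). CHGA, GAP43 and INSM1 had at most 3 counts in any library. TUBB3, a neuronal tubulin, was at 5.24, 5.59 and 3.92 CPM in si-NC and at 2.88, 4.43 and 2.33 CPM in si-SRSF11. The groups overlapped, and the log2 fold change of -0.61 passed at an adjusted p of 0.049 by edgeR, up to 0.18 with 1 library left out (not passed without si-NC replicate 1 or 2 or si-SRSF11 replicate 1 or 3). Of its exon bases, 35.8% are shared with AC092143.1. SYP, a protein of synaptic vesicles, had -0.71 (adjusted p 0.18 by edgeR) and overlapping groups. The part of these markers in the SRRM3 values was not tested.

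Of the proteins that stay on spliced mRNA, both RNPS1 and PNN rose. RNPS1 (ENSG00000205937, chr16:2253116-2268412, minus strand), an activator of splicing that binds the exon junction complex, was at 165.1, 154.6 and 162.3 CPM in si-NC and at 191.9, 182.9 and 185.1 CPM in si-SRSF11. The groups did not overlap. The mean rose from 160.6 ± 5.45 to 186.6 ± 4.68 CPM (SD, n = 3), which is 1.16-fold, with a log2 fold change of 0.22 (SE 0.0475, 95% interval 0.12 to 0.31) and an adjusted p of 0.0018 by edgeR's quasi-likelihood test. The processed pseudogene RNPS1P1 had 1 to 7 counts, and 0.71% of the 100 nt windows of the longest RNPS1 transcript also occur in transcripts of other genes, mainly this one.

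PNN (ENSG00000100941, chr14:39175183-39183218, plus strand), or pinin, found both in speckles and at desmosomes, was at 51.1, 50.5 and 51.4 CPM in si-NC and at 61.0, 69.0 and 62.1 CPM in si-SRSF11. The si-SRSF11 libraries all lay above the si-NC libraries, with replicate 2 the highest. The mean rose from 51.0 ± 0.486 to 64.0 ± 4.35 CPM (SD, n = 3), or 1.26-fold. The log2 fold change was 0.33 (SE 0.0606, 95% interval 0.20 to 0.45), with an adjusted p of 0.00036 by edgeR's quasi-likelihood test. Of the PNN exon bases, 3.09% are shared with the antisense gene AL132639.3, which itself had 1 to 7 counts.

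**Figure D2:**
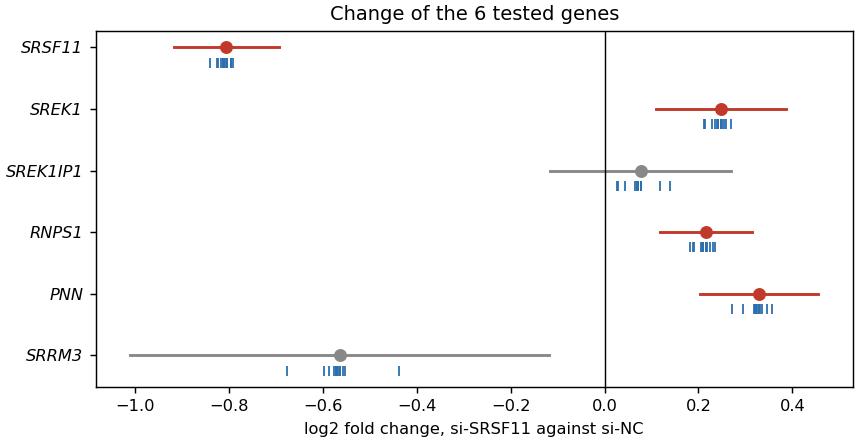
The log2 fold change (si-SRSF11 against si-NC) is plotted for the 6 tested genes, with points for the estimate, lines for the 95% interval (red where the adjusted p was under 0.05) and blue ticks for the 15 alternative analyses. The ticks of SRSF11, SREK1, RNPS1 and PNN stay on their side of 0 and those of SRRM3 run from -0.68 to -0.44.

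For single genes, the two-sided exact permutation test over the 6 samples gave p = 0.10 for SRSF11, SREK1, SRRM3, RNPS1 and PNN, the smallest value that 3 samples against 3 allow. For SREK1IP1 the exact permutation p was 0.40.

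To compare levels between genes, counts were divided by exon length and scaled to a sum of 1000000 in each library (TPM). Over all 6 libraries the order was RNPS1 (59.0 TPM), PNN (39.9), SRSF11 (23.6), SREK1IP1 (7.43), SREK1 (5.95) and SRRM3 (1.26). Among 19951 protein-coding genes these were places 2276, 3379, 5236, 8995, 9528 and 11782. In si-NC, PNN at 36.5 ± 0.452 and SRSF11 at 30.7 ± 0.795 TPM (SD, n = 3) were close in level, and in si-SRSF11 they were at 43.3 ± 2.85 and 16.6 ± 0.627. SREK1IP1 and its partner SREK1 were at 7.44 ± 0.546 and 5.61 ± 0.150 TPM in si-NC and at 7.42 ± 0.561 and 6.29 ± 0.397 in si-SRSF11. TPM rests on the length of all annotated exons, of which LoVo cells may use a part. Of these exon bases, 43.6% in SRSF11, 50.8% in SREK1 and 54.0% in RNPS1 lie outside coding transcripts. The share is 11.1% in PNN, 8.77% in SREK1IP1 and 10.2% in SRRM3. The order of genes with unlike shares, such as PNN and SRSF11 or SREK1IP1 and SREK1, can therefore depend on the lengths used.

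**Figure D3:**
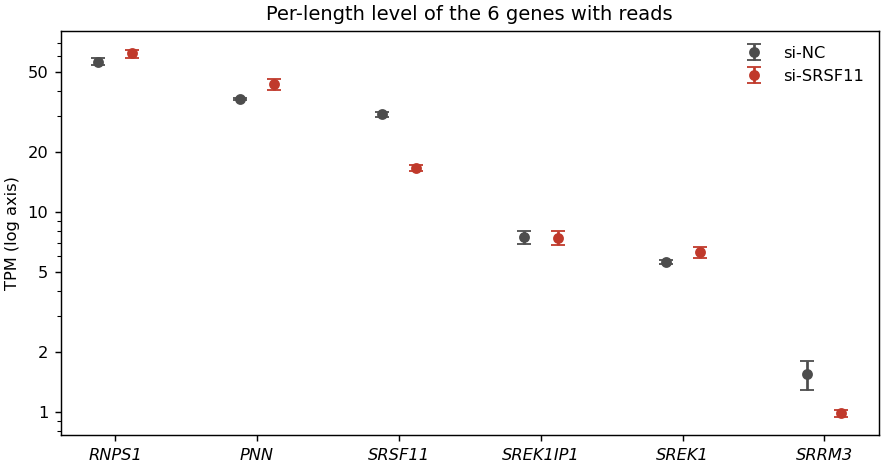
Mean TPM (log axis) of the 6 genes with reads enough for a test is shown for si-NC and si-SRSF11, with the SD of 3 libraries. RNPS1 leads in both groups, and SRSF11 moves from 30.7 to 16.6 TPM. The order between genes can depend on the exon lengths used.

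Since a ratio within a library does not depend on its scaling, the partners were also set against SRSF11 library by library. The TPM ratio of RNPS1 to SRSF11 was 1.86, 1.81 and 1.83 in si-NC and 3.76, 3.72 and 3.69 in si-SRSF11. That of PNN to SRSF11 was 1.18, 1.21 and 1.19 in si-NC and 2.44, 2.87 and 2.53 in si-SRSF11. That of SREK1 to SRSF11 was 0.183, 0.189 and 0.176 in si-NC and 0.387, 0.385 and 0.364 in si-SRSF11. These ratios did not overlap between the groups, with an exact permutation p of 0.10 each, and the fall of SRSF11 enters each of them.

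Ratios that leave SRSF11 out overlapped. The ratio of RNPS1 to its complex partner PNN was 1.54 ± 0.041 in si-NC and 1.43 ± 0.12 in si-SRSF11 (SD, n = 3, exact permutation p = 0.20). That of SREK1 to SREK1IP1 was 0.757 ± 0.062 and 0.849 ± 0.043 (SD, n = 3, exact permutation p = 0.20). Adjusted by Benjamini-Hochberg over the 5 ratios, the permutation p was 0.167 for the 3 ratios with SRSF11 and 0.20 for the others.

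Genes that overlap a member or lie within 10 kb of it were read beside it. LRRC40, whose body starts 62 bases from SRSF11 on the opposite strand, had a log2 fold change of -0.02 (SE 0.0948, adjusted p 0.89 by edgeR), and ANKRD13C, 7536 bases away, had 0.05 (adjusted p 0.60). CWC27, 245 bases from SREK1IP1, had -0.02 (adjusted p 0.91 by edgeR), and TRAPPC6B, 4651 bases from PNN, had -0.17 (adjusted p 0.23). ECI1, an enzyme of fatty acid oxidation that lies 816 bases from RNPS1 on the same strand, fell by 0.21 on the log2 scale (SE 0.0585, adjusted p 0.012 by edgeR), in the direction opposite to RNPS1. It did not pass without si-NC replicate 1 or si-SRSF11 replicate 1 (adjusted p up to 0.066 by edgeR). ABCA3, 7469 bases from RNPS1, had 0.09 (adjusted p 0.22 by edgeR), and the non-coding AC009065.4, which overlaps the start of RNPS1, had 0.16 on only 8 to 20 counts (adjusted p 0.82). The antisense genes AL353771.1 in SRSF11 and AC025442.1 in SREK1 had 0 or 1 counts per library. Whether reads were counted by strand is not given in the sources used here.

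The wider family of SR-related proteins, 41 genes apart from the members, all passed the filter. Of these, 14 rose, 1 fell and 26 did not pass, with a median log2 fold change of 0.10, where 24.6% of all tested genes were called and their median was 0.00. Among those that did not pass, U2AF1 was uneven between replicates and gives little information. It had 48, 39 and 299 counts in si-NC and 101, 86 and 156 in si-SRSF11 (SE of the log2 fold change 0.424). BCLAF1, a serine- and arginine-rich factor in mRNA processing, was at 38.5, 44.9 and 42.2 CPM in si-NC and at 62.6, 61.1 and 57.3 CPM in si-SRSF11. It had the largest rise of the list, 0.53 on the log2 scale (SE 0.0654, adjusted p 3.6e-06 by edgeR), and its groups did not overlap. U2SURP, a protein of the U2 snRNP, rose from 80.3 to 105.2 CPM (log2 fold change 0.39, adjusted p 4.4e-06 by edgeR), with 6.93% of its exon bases shared with other genes. DDX23, a helicase of the U5 snRNP, rose from 71.1 to 94.5 CPM (0.41, adjusted p 1.1e-05 by edgeR), and the SR-like TRA2B, which binds exonic enhancers, rose from 122.0 to 150.3 CPM (0.30, adjusted p 5.8e-05 by edgeR). The 1 gene that fell was CCNL2, a cyclin found in speckles, from 162.9 to 139.6 CPM (-0.22, adjusted p 0.0011 by edgeR). With 1 library left out, the list had 11 to 17 calls. Of the genes that rose, PRPF4B stayed called in 4 of these 6 fits, ZRANB2 in 3 and SON and PRPF38A in 2 each.

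In the complexes around RNPS1 and PNN (11 further genes of PSAP, ASAP and the exon junction complex), 3 rose, 1 fell and 7 did not pass, with a median of 0.08. That is 36.4% called, beside 24.6% of all tested genes. ALYREF, an mRNA export adaptor, was at 68.8, 66.8 and 74.5 CPM in si-NC and at 84.7, 97.6 and 104.6 CPM in si-SRSF11. It rose by 0.45 on the log2 scale (SE 0.0663, adjusted p 3e-05 by edgeR), and the groups did not overlap. EIF4A3, the helicase that anchors the exon junction complex, rose from 141.0 to 164.3 CPM (0.22, adjusted p 0.0017 by edgeR), and CWC22, which delivers it to the spliceosome, rose from 11.2 to 14.0 CPM (0.33, adjusted p 0.039 by edgeR). ACIN1, which takes the place of PNN in ASAP, fell from 173.7 to 155.3 CPM (-0.16, adjusted p 0.018 by edgeR), with 7.03% of its exon bases shared with C14orf119. Without si-NC replicate 2 or si-NC replicate 3, ACIN1 no longer passed (adjusted p up to 0.083 by edgeR), nor did CWC22 without si-NC replicate 1, si-NC replicate 2 or si-SRSF11 replicate 2 (up to 0.22), and without si-NC replicate 2 the list held 2 calls. SAP18, the subunit common to both complexes, had a log2 fold change of 0.00 (SE 0.0518, adjusted p 0.96 by edgeR).

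Other regulators of neural microexons were mixed. Of 18 listed, 8 did not reach the filter (RBFOX1, RBFOX3, NOVA1, NOVA2, ELAVL2, ELAVL3, ELAVL4 and CELF2), 2 rose, 4 fell and 4 did not pass, with a median of -0.04. Of the 10 tested, 60% were called, beside 24.6% of all tested genes. PTBP3, of the family that represses neural exons, was at 152.6, 148.3 and 150.0 CPM in si-NC and at 129.8, 127.4 and 121.1 CPM in si-SRSF11, and fell by 0.25 on the log2 scale (SE 0.0474, adjusted p 0.00043 by edgeR). Its relative PTBP1 was at 710.2 CPM in the highest si-NC library and at 712.7 in the highest si-SRSF11 library, with a log2 fold change of 0.00 (adjusted p 0.96 by edgeR). REST, the repressor that keeps SRRM4 silent outside neurons, was at 45.6, 49.9 and 47.0 CPM in si-NC and at 60.1, 62.9 and 51.8 CPM in si-SRSF11, and rose by 0.29 (SE 0.0692, adjusted p 0.0032 by edgeR). The other genes that passed were QKI (-0.22, adjusted p 0.028), RBFOX2 (-0.14, adjusted p 0.036), MBNL1 (-0.15, adjusted p 0.041) and SF1 (0.14, adjusted p 0.044), each by edgeR. The count of 6 called genes was 3 by DESeq2 and between 2 and 4 with any 1 library left out. PTBP3 and REST passed in all 6 of these, QKI in 3, SF1 in 2 and RBFOX2 and MBNL1 in 1 each, the latter pair only without si-SRSF11 replicate 1.

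The last list holds 16 genes known for a neural microexon, and the exons of the 4 called genes with the smallest adjusted p are printed because such exons are the kind of target SRRM3, SRRM4 and SRSF11 act on. GENCODE 29 (GRCh38) annotates in the 16 genes 25 coding internal exons of at most 27 bases, of which 23 have a length divisible by 3 and so keep the reading frame. Each line gives the exon in capitals with 15 bases of the neighbouring exons in lower case, as in the spliced transcript.
KDM1A: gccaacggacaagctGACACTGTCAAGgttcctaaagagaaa
CPEB4: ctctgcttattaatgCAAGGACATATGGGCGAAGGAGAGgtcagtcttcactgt
MEF2D: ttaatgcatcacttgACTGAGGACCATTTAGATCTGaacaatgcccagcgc
AGRN, shorter exon: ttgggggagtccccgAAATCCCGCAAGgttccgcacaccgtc
AGRN, longer exon: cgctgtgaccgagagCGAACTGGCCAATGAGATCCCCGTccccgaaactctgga

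The exon of KDM1A has 12 bases (chr1:23066060-23066071) and that of CPEB4 has 24 (chr5:173943026-173943049). The exon of MEF2D has 21 bases (chr1:156476494-156476514, minus strand). AGRN holds exons of 12 and 24 bases (chr1:1051032-1051043 and chr1:1051993-1052016). A gene count does not say which exons its reads covered, so how often these exons were included was not measured here, and the values that follow are levels of whole genes.

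Of the 16 genes, APBB1 and PTPRD did not reach the filter, 2 rose, 5 fell and 7 did not pass, with a median of -0.07. Of the 14 tested, 50% were called, beside 24.6% of all tested genes (13.2% as higher, 11.4% as lower). CPEB4, a cytoplasmic polyadenylation factor, was at 38.3, 41.2 and 40.4 CPM in si-NC and at 27.2, 28.3 and 26.1 CPM in si-SRSF11. Its groups did not overlap, and it fell by 0.55 on the log2 scale (SE 0.0703, adjusted p 4.7e-06 by edgeR), the largest change of the list. AGRN, the basement membrane proteoglycan agrin, fell from 1422 to 1201 CPM (-0.24, adjusted p 0.00014 by edgeR), and the transcription factor MEF2D fell from 86.7 to 71.2 CPM (-0.28, adjusted p 0.00078 by edgeR). KDM1A, the histone demethylase LSD1, rose from 226.8 to 265.6 CPM (0.23, adjusted p 0.00077 by edgeR). The other calls were MEF2C (-0.26, adjusted p 0.022), PHF21A (-0.19, adjusted p 0.038) and EIF4G1 (0.13, adjusted p 0.034), each by edgeR. Without si-NC replicate 1 or si-NC replicate 3, 4 of the genes were called. CPEB4, AGRN, MEF2D and KDM1A passed with any 1 library left out, and MEF2C, PHF21A and EIF4G1 passed in at most 2 of these 6 fits.

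Over the 6 libraries, the protein-coding genes whose profile was closest to that of SRSF11 were CDS1, RASIP1, UBE2E1, MYEOV and PER1. Likeness was the root mean square difference in log2 CPM, each gene centred on its own mean, among 6301 genes whose mean log2 CPM was 5 or more, and it was 0.0289 for CDS1, 0.0333 for RASIP1, 0.0386 for UBE2E1, 0.0415 for MYEOV and 0.057 for PER1. CDS1, an enzyme of phospholipid synthesis, went from 49.5 ± 0.978 to 27.2 ± 0.362 CPM (SD, n = 3), and PER1, a repressor of the circadian clock, from 93.1 ± 2.30 to 57.3 ± 0.167 CPM. None of the other members was among the 5, which says nothing about them. The limit on level left out SREK1IP1, SRRM3, SRSF12 and SRRM4. The 3 that rose run in the opposite direction and so could not be among the closest.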

How the data were processed

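LoVo RNA was sequenced in 3 si-NC and 3 si-SRSF11 libraries. The authors deposited raw read counts per gene, with no normalization or filter, for 58735 genes, together with gene coordinates and exon lengths. Gene identifiers, starts and ends were checked against GENCODE 29 (GRCh38), and names and lengths were used as deposited. The aligner, the counting program and the strand setting are not given in the sources used here. Samples were grouped by their labels. One plot of the study brackets the library names the other way round, and the SRSF11 counts went with the labels.

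The 15801 genes that reached 10 counts in 3 or more libraries were scaled by TMM and tested in edgeR 4.0.16 (R 4.3.3) with glmQLFit and glmQLFTest on condition, with Benjamini-Hochberg adjustment over all of them. SEs came from the quasi-likelihood F statistic. The fit was tested on simulated data. TPM used the deposited lengths. Alternatives were DESeq2 1.42.0, other scalings and filters, a robust spread, tests on protein-coding genes alone, a block for the replicate number and leaving out 1 library at a time. Replicate libraries differed by more than counting noise, so none was counted as a library deposited again.

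The 8 members and the gene lists were chosen with earlier results of these data known. The share called in each list stands beside that of all tested genes, which was not matched to the list for level. Named from each list were the 4 called genes with the smallest adjusted p, and any count of 5 or fewer. PTBP1, SAP18, the marker genes and the further microexon and regulator genes were added after their values were seen. Promoters came from RefSeq (GRCh38.p14). Splicing was not analysed here.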

Additional observations from a re-analysis of the deposited data

How the results depend on the processing

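Fold changes of SRSF11, SREK1, RNPS1 and PNN kept their direction and stayed called in all 15 alternatives. They ranged from -0.84 to -0.79 for SRSF11, from 0.21 to 0.27 for SREK1 (adjusted p 0.0071 to 0.044), from 0.18 to 0.24 for RNPS1 (0.00071 to 0.02) and from 0.27 to 0.36 for PNN (1.3e-05 to 0.0047). SREK1IP1 stayed uncalled, from 0.03 to 0.14. SRRM3 was called with library size alone (-0.60), with protein-coding genes only (-0.58) and without si-NC replicate 2, and ranged from -0.68 to -0.44 with a library left out. The cause was not tested. None of the 15 alternatives scaled by gene length. In TPM, RNPS1 went from 56.3 ± 2.18 in si-NC to 61.8 ± 2.82 in si-SRSF11 (SD, n = 3). SREK1 went from 5.61 ± 0.150 to 6.29 ± 0.397. The rises of RNPS1, SREK1 and PNN were smaller in TPM than in CPM, and the fall of SRSF11 was larger.

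The number of genes called, 3886, became 2994 by DESeq2, 173 with an absolute log2 fold change over 1, and 2733 to 3877 with a library left out. Scaling by library size alone called 1585 genes as higher and 2289 as lower, in place of 2081 and 1805, and moved the median of all genes to -0.03. With a library left out, the called genes of the PSAP, ASAP and exon junction list numbered 2 (without si-NC replicate 2) to 5, those of the genes with a neural microexon 4 to 7, and those of the neural microexon regulators 2 (without si-NC replicate 1) to 4. The last list had 3 by DESeq2. The SR-related proteins had 11 to 17 calls with a library left out, and 12 with library size alone.

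The study speaks of pairs of samples, but no label says what a replicate number marks, and the numbers were not taken to pair the samples. Correlations of deviations between same-numbered libraries were positive but small, 0.0151, 0.0362 and 0.0403, those between other numbers were all negative, and each library correlated best with its own number. Each gene was centred on its group mean, so positive values for same numbers push the others below 0. The negative values therefore carry little separate information on pairing. The replicate block called 4036 genes and the same number of members, 4, as the fit without it.

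Depth limits SRRM4 and SRSF12, which had at most 1 count, and SRRM3, with 37 to 64 counts. All p-values rest on 3 samples per group of 1 cell line.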
